A study of Rattus norvegicus with 18 samples.

Results

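Neuronal calcium sensors and calcium buffers were followed across diet and training in rat hippocampus, the brain structure that forms memories of places and contexts. The set held 9 genes. Hpca, Hpcal1, Hpcal4, Vsnl1, Ncald and Ncs1 encode calcium sensors, and Calb1, Calb2 and Pvalb encode calcium buffers. All probe sets whose platform symbol was one of these names were taken, which gave 13 of the 15923 probe sets on the array (10 for the sensors and 3 for the buffers) and 9 of 10412 genes. Hpcal1, Hpcal4, Vsnl1 and Ncs1 had 2 probe sets each, and the other 5 genes had 1. All 13 passed the filter on low values and were tested.

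The study asked about learning disability after fetal alcohol exposure. Total RNA was measured on 18 Affymetrix arrays, 1 per sample, in 6 groups formed by diet and training. The alcohol diet had 4 trained and 4 naive arrays, the isocaloric diet 4 trained and 2 naive, and the control diet 2 trained and 2 naive. Training is labelled CFC, an abbreviation that the labels leave unexplained. Strain, age, sex, alcohol dose, litter, pooling and the time from training to tissue are not given in the sources used here. It is not stated either that replicates were separate animals, so p-values reflect the spread of these samples alone, part of which may be technical.

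Sensor proteins of the hippocalcin and visinin family bind calcium through EF-hand loops, and most of them then expose a fatty acid that carries them to membranes, where they act on channels, receptors and enzymes. Buffers of the calbindin and parvalbumin kind bind calcium that enters a neuron and so shape how far and how long a signal lasts. In the hippocampus, hippocalcin is abundant in pyramidal cells, calbindin in dentate granule cells and CA1 pyramidal cells, and calretinin and parvalbumin mark separate classes of inhibitory interneurons.

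Values are scaled intensities, called signal here. Every array had a mean of 150 after 2% of values were trimmed at each end, summed signal was 2920000 to 3130000, and any pair of arrays correlated at 0.949 to 0.982. The defining neuron markers were present, with a summed signal of 13200 to 16770 for 11 genes. A choroid plexus marker, Ttr, was at 5927 to 7331 on alcohol trained replicate 4, alcohol naive replicate 2, isocaloric trained replicate 3 and control trained replicate 1, against 62.5 to 755.1 on the other arrays. The number of arrays, 2 in each of 3 groups, limits the precision.

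Between the alcohol and the control diet, 7 of the 13 probe sets rose and 0 fell, by limma with Benjamini-Hochberg adjustment over all 9520 probe sets tested and a threshold of 0.05. All 7 belonged to sensors (7 of 10), and 0 of 3 buffer probe sets passed. They covered 5 genes, Hpca, Hpcal1, Hpcal4, Vsnl1 and Ncs1. Of all probe sets tested, 11.3% rose in this comparison and 8.61% fell. The median log2 difference was 0.44 for the sensor probe sets, 0.39 for all members and -0.00 for all probe sets tested. Members were chosen with earlier results of these data known, so this contrast with all probe sets is a description, not independent support. In bulk tissue, a change in the number of cells of a type and a change in RNA per cell cannot be told apart.

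**Figure D1:**
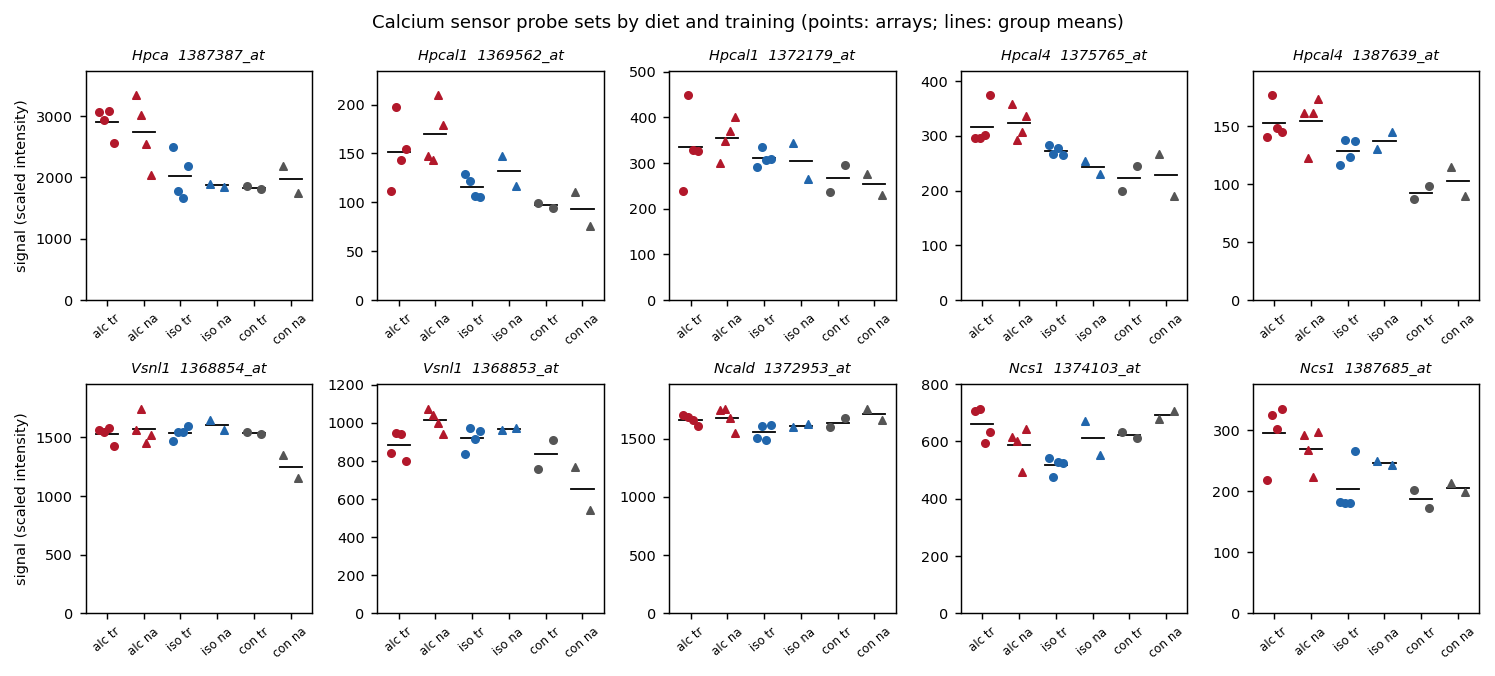
Signal (scaled intensity, linear axis from 0) of the 10 calcium sensor probe sets on each array, by diet (alc, alcohol; iso, isocaloric; con, control) and training (tr, trained; na, naive); points are arrays and lines are group means. For Hpca the 8 alcohol arrays lie at 2038 to 3339 and the 4 control arrays at 1743 to 2190.1, while the Ncald diets overlap at 1544 to 1758, 1490.5 to 1627 and 1596 to 1758.

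Hpca encodes hippocalcin, the sensor for which the family is named. The signal of its probe set (1387387_at) was 3060.3, 2931, 3083 and 2558 on the alcohol trained arrays and 3339, 3017, 2543 and 2038 on the alcohol naive arrays. It was 2489, 1774, 1659 and 2185 on the isocaloric trained, 1899.5 and 1852 on the isocaloric naive, 1860.1 and 1808 on the control trained and 2190.1 and 1743 on the control naive arrays. All alcohol arrays except naive replicate 4 lay above every control array, and that array lay below control naive replicate 1. Averaged over trained and naive samples, the alcohol diet was higher than control by 0.56 ± 0.12 (SE; adjusted p = 0.00428) on the log2 scale, in limma, with 8 of 8 alcohol arrays above the control mean of the same training state.

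Hpcal1 encodes hippocalcin-like 1, a close relative also found outside the brain. The signal of its first probe set (1369562_at) was 111, 197, 144 and 155 on the alcohol trained, 148, 144, 209.6 and 179 on the alcohol naive, 99.7 and 94.4 on the control trained and 110.2 and 76.3 on the control naive arrays. No alcohol array overlapped a control array, a separation upward seen in 3.98% of all probe sets tested. The isocaloric arrays, at 105 to 148, overlapped both. The difference was 0.71 ± 0.14 (SE; adjusted p = 0.00223) in limma. Its second probe set (1372179_at) read 238, 449, 329 and 327 on the alcohol trained and 299, 348, 369.7 and 401 on the alcohol naive arrays, against 236 and 296 on the control trained and 277 and 229.9 on the control naive arrays. Here alcohol trained replicate 1 lay among the control arrays. The difference was smaller, at 0.39 ± 0.12 (SE; adjusted p = 0.0365), and it lost its call when any 1 of 6 arrays was left out, with adjusted p from 0.0506 without alcohol trained replicate 3 to 0.194 without control naive replicate 2 (also alcohol trained replicate 2, 0.0519; alcohol naive replicates 3 and 4, 0.0598 and 0.0636; control trained replicate 1, 0.176). The gap between the 2 probe sets, 0.32 on the log2 scale, passed an exact two-sided permutation test of diet within training state (p = 0.00444, the smallest that 225 arrangements allow, adjusted p = 0.0355 over 8 such tests).

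Hpcal4 encodes hippocalcin-like 4, a sensor made mainly in brain. The signal of the probe set 1375765_at was 295, 296, 302 and 374 on the alcohol trained arrays and 359, 292, 306 and 337 on the alcohol naive arrays. It was 283, 267, 278 and 265 on the isocaloric trained, 254 and 231 on the isocaloric naive, 199.6 and 245 on the control trained and 268 and 189.7 on the control naive arrays. Every alcohol array exceeded every control array and every isocaloric array. Such upward separation was found for 3.98% of all probe sets against control and for 0.651% against isocaloric. Against control the difference was 0.50 ± 0.09 (SE; adjusted p = 0.00163) in limma. For the probe set 1387639_at, the signal was 141, 177, 149 and 146 on the alcohol trained, 162, 123, 162 and 174 on the alcohol naive, 117, 138, 124 and 137 on the isocaloric trained and 130.5 and 145 on the isocaloric naive arrays. On the control arrays it was lower, at 87.1 and 98.2 in trained and 115 and 90.1 in naive samples. All 8 alcohol arrays and all 6 isocaloric arrays lay above the control range, separations found for 3.98% and 3.49% of all probe sets. The difference from control was 0.63 ± 0.10 (SE; adjusted p = 0.000597), the lowest adjusted p of any member in this comparison. The calls of both Hpcal4 probe sets against control held in all 33 alternative settings.

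Vsnl1 encodes visinin-like protein 1, a sensor abundant in hippocampal neurons and followed in cerebrospinal fluid as a marker of neuronal injury. The signal of the probe set 1368853_at was 842, 949, 944 and 803 on the alcohol trained arrays and 1076, 1042, 999 and 941 on the alcohol naive arrays. It was 838, 975, 918 and 958 on the isocaloric trained, 962 and 974 on the isocaloric naive, 758 and 912 on the control trained and 768 and 541 on the control naive arrays. Control naive replicate 2 was the lowest of all arrays, and 2 alcohol trained arrays fell below control trained replicate 2. The alcohol diet was higher than control by 0.37 ± 0.08 (SE; adjusted p = 0.0066), in 7 of 8 arrays. Without control naive replicate 2 the difference was 0.24 (adjusted p = 0.0675), and without control trained replicate 1 it was 0.30 (adjusted p = 0.0549). The second probe set (1368854_at) read 1426 to 1745 on alcohol and 1154 to 1549 on control arrays, and its difference of 0.16 ± 0.06 (SE; adjusted p = 0.0746) did not pass.

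Ncs1 encodes neuronal calcium sensor 1 (frequenin), which acts on transmitter release, channels and phosphoinositide kinases. Its probe sets did not move alike. The signal of 1387685_at was 218, 324, 302 and 336 on the alcohol trained, 291, 267, 223 and 298 on the alcohol naive, 203 and 172 on the control trained and 213 and 198 on the control naive arrays. The alcohol arrays lay above all control arrays, as they did for 3.98% of all probe sets tested. The isocaloric arrays, at 181 to 267, overlapped both. The difference of alcohol from control was 0.50 ± 0.12 (SE; adjusted p = 0.00867). It was 0.475 without control naive replicate 2 (adjusted p = 0.0515) and 0.44 without control trained replicate 2 (adjusted p = 0.0504). On 1374103_at the alcohol arrays read 492 to 715 and the control arrays 611 to 708, a difference of -0.08 ± 0.08 (SE; adjusted p = 0.51). The log2 differences of the probe sets stood 0.58 apart, past the exact permutation test (p = 0.00889, adjusted p = 0.0356). Over the 18 arrays these probe sets correlated at r = 0.32, against 0.84 for Hpcal1, 0.77 for Hpcal4 and 0.84 for Vsnl1, as a description over arrays that share diet groups.

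Ncald encodes neurocalcin delta, a sensor that binds clathrin and other membrane trafficking proteins. Its signal was 1544 to 1758 on alcohol, 1490.5 to 1627 on isocaloric and 1596 to 1758 on control arrays. The difference of alcohol from control was -0.00 ± 0.05 (SE; adjusted p = 0.988), with a 95% interval from -0.11 to 0.11. Ncald thus had the narrowest interval of the 13 probe sets, and its bounds were under the differences called for the other 5 sensor genes.

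Because Hpca, Hpcal1 and Hpcal4 rose on all of their probe sets, the 250 bases upstream of each RefSeq gene start are shown (GRCr8, 5′ to 3′ on the gene's strand). Capitals mark matches, on either strand, to TGACG, the half-site of the cAMP response element, or to the GC box GGGCGG. The regions are chr5:146748359-146748608 on the minus strand for Hpca, chr6:46206644-46206893 on the plus strand for Hpcal1 and chr5:140739658-140739907 on the plus strand for Hpcal4.
Hpca: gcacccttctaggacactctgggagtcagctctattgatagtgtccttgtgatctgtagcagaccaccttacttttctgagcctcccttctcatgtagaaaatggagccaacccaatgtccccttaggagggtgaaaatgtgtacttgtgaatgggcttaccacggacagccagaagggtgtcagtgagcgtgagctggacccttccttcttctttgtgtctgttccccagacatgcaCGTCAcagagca
Hpcal1: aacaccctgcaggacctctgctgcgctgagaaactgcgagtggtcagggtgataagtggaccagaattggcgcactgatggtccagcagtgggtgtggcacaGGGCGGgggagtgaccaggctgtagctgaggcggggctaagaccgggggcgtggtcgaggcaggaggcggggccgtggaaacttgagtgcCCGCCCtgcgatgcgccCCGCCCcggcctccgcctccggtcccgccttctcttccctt
Hpcal4: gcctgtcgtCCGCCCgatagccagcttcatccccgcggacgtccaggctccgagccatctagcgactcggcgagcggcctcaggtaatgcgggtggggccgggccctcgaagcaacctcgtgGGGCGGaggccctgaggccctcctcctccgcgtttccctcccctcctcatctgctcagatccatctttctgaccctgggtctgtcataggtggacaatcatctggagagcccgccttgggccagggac

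Upstream sequence was matched for 6 of the 9 genes, the 3 above with Vsnl1, Ncs1 and Pvalb. TGACG lay in 3 of the 6 (Hpca, Ncs1 and Pvalb) and in 18.2% of 33469 promoters of the same length. GGGCGG lay in 4 of the 6, with 3 matches in Hpcal1, 2 in Hpcal4 and 1 each in Vsnl1 and Pvalb, and in 30.5% of all promoters. The E-box CACGTG lay in 0 of the 6 and in 5.59% of all. The half-site in Hpca began 12 bases before the gene start. The 3 genes printed did not share a motif among those searched, Hpca with the half-site alone and both relatives with GC boxes alone. No matches overlapped, and a match is a string of letters, not a measured site.

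The isocaloric diet, a feeding control without alcohol, was compared with the control diet by the same limma fit. These comparisons share the control arrays, so their values are set side by side without further test. Of the 13 probe sets 2 rose and 0 fell, against 4.24% of all probe sets tested rising and 2.8% falling. Both were sensors. Vsnl1 (1368853_at) was higher by 0.36 ± 0.09 (SE; adjusted p = 0.0245) and Hpcal4 (1387639_at) by 0.43 ± 0.11 (SE; adjusted p = 0.0245), each in 6 of 6 arrays. The isocaloric and control arrays of that Hpcal4 probe set did not overlap, which held upward for 3.49% of all probe sets. Hpca differed by 0.03 (adjusted p = 0.913), with a 95% interval from -0.24 to 0.30. The other Hpcal4 probe set differed by 0.20 (adjusted p = 0.226), and the Hpcal1 probe sets by 0.36 (adjusted p = 0.132) and 0.24 (adjusted p = 0.287). Neither call held when control naive replicate 2, control trained replicate 1, isocaloric naive replicate 1 or isocaloric naive replicate 2 was left out. Without them in that order, 1 at a time, the Vsnl1 difference was 0.24, 0.30, 0.37 and 0.36 (adjusted p = 0.182, 0.118, 0.0679 and 0.093) and the Hpcal4 difference 0.35, 0.39, 0.47 and 0.40 (adjusted p = 0.174, 0.101, 0.0528 and 0.12). The Hpcal4 call was also lost without control trained replicate 2, at a difference of 0.47. Leaving out control naive replicate 1 left 1 array in its group. There Hpcal1 (1369562_at), Hpcal4 (1375765_at) and Vsnl1 (1368854_at) were higher by 0.49, 0.32 and 0.24, while Calb1 was lower (-0.28).

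Setting alcohol against isocaloric asks what differed between diets matched in calories, as the diet's name states. Only Hpca passed, 1 of 13 probe sets, against 1.47% of all probe sets rising and 1.59% falling. It was higher by 0.53 ± 0.11 (SE; adjusted p = 0.0176) with a 95% interval from 0.30 to 0.76, and 8 of 8 alcohol arrays lay above the isocaloric mean of the same training state. The arrays still overlapped, since isocaloric trained replicates 1 and 4 exceeded alcohol naive replicate 4. In trained samples alone Hpca differed by 0.54 (adjusted p = 0.0912) and in naive samples alone by 0.52 (adjusted p = 0.222). The call was lost without isocaloric naive replicate 1 (0.53, adjusted p = 0.0951) or replicate 2 (0.52, adjusted p = 0.106), although the difference kept its size. Without the 4 arrays high in Ttr it was 0.48 (adjusted p = 0.079).

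Hpcal4 (1375765_at) stood closest to the threshold among the others, at 0.30 ± 0.08 (SE; adjusted p = 0.0561), and its alcohol and isocaloric arrays did not overlap, an upward separation found in 0.651% of all probe sets. It passed without control naive replicate 1 or 2, and in 9 of the 33 alternative settings in all. Its second probe set differed by 0.20 (adjusted p = 0.222). Ncs1 differed by 0.32 (adjusted p = 0.101) on 1387685_at, which passed without alcohol trained replicate 1 or isocaloric trained replicate 4, and by 0.15 (adjusted p = 0.231) on 1374103_at. Hpcal1 differed by 0.35 (adjusted p = 0.117) and 0.15 (adjusted p = 0.464). For Vsnl1 the differences were 0.00 (adjusted p = 0.992) and -0.02 (adjusted p = 0.853), with 95% intervals from -0.16 to 0.16 and from -0.14 to 0.09. Ncald differed by 0.08 (adjusted p = 0.364). Within trained samples 0 of 13 members passed limma's adjusted threshold and 4 had an unadjusted p under 0.05. Within naive samples these were 0 and 2. Of all probe sets, 0.399% and 0.0735% passed, and 14.7% and 12.4% had an unadjusted p under 0.05, so the 2 in naive samples are near the background share.

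The order of the diets differed in these values from gene to gene. For Hpca the alcohol mean stood above those of both other diets, whose own difference was 0.03. For Vsnl1 (1368853_at) the alcohol and isocaloric diets differed by 0.00 and both were above control. Hpcal4 took an intermediate order, with differences from control of 0.50 and 0.63 for alcohol and of 0.20 and 0.43 for isocaloric. The 3 differences of a probe set come from the same arrays and are not independent.

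**Figure D2:**
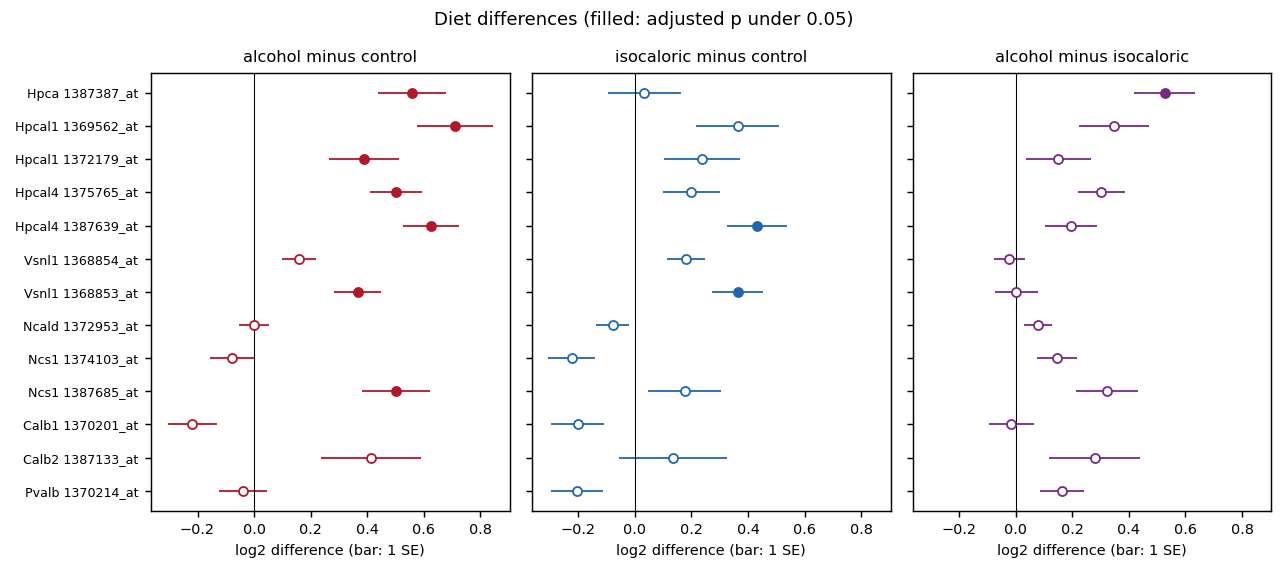
Log2 difference of each member probe set in the 3 averaged diet comparisons (x axis, log2 scale; points, limma estimates; bars, 1 SE; filled points, adjusted p under 0.05). Of the 13 probe sets 7 are filled for alcohol minus control, 2 for isocaloric minus control and 1, Hpca, for alcohol minus isocaloric.

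The 3 calcium buffers did not pass in any diet comparison. Calb1 encodes calbindin, the fast buffer of granule cells. Its signal was 341, 364, 306 and 408 on the alcohol trained arrays and 349, 372, 411 and 444 on the alcohol naive arrays. It was 420.4, 336, 389.5 and 408 on the isocaloric trained, 375 and 357 on the isocaloric naive, 417 and 418 on the control trained and 402 and 505 on the control naive arrays. The highest array was control naive replicate 2 and the lowest alcohol trained replicate 3. The log2 difference was -0.22 (adjusted p = 0.085) for alcohol minus control, -0.20 (adjusted p = 0.189) for isocaloric minus control and -0.02 (adjusted p = 0.934) for alcohol minus isocaloric. The first of these passed with median centring (-0.255, adjusted p = 0.0498), without the 2 arrays with MAS5 named (-0.30, adjusted p = 0.0496), without alcohol trained replicate 4 (-0.25, adjusted p = 0.0455) and without control naive replicate 1 (-0.30, adjusted p = 0.0201). The second passed with median centring (-0.31, adjusted p = 0.0395) and without control naive replicate 1 (-0.28, adjusted p = 0.0437).

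Calb2 encodes calretinin. Its signal was 94.7, 124, 249.7 and 182 on the alcohol trained arrays and 138, 215, 169 and 165 on the alcohol naive arrays. It was 119.6, 131, 147 and 145 on the isocaloric trained, 139.5 and 117 on the isocaloric naive, 113 and 142 on the control trained and 113 and 112 on the control naive arrays. Alcohol trained arrays ran from the lowest value of the 18 arrays (replicate 1) to the highest (replicate 3). The difference was 0.41 ± 0.18 (SE; adjusted p = 0.106) for alcohol minus control, with a 95% interval from 0.04 to 0.78, and it passed without alcohol trained replicate 1. It was 0.13 (adjusted p = 0.718) for isocaloric minus control and 0.28 (adjusted p = 0.322) for alcohol minus isocaloric. Pvalb encodes parvalbumin, the buffer of fast-spiking interneurons. Its signal was 195 to 249 on alcohol, 177 to 210.5 on isocaloric and 189 to 268 on control arrays. The respective differences were -0.04 (adjusted p = 0.783), -0.20 (adjusted p = 0.173) and 0.17 (adjusted p = 0.226).

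**Figure D3:**
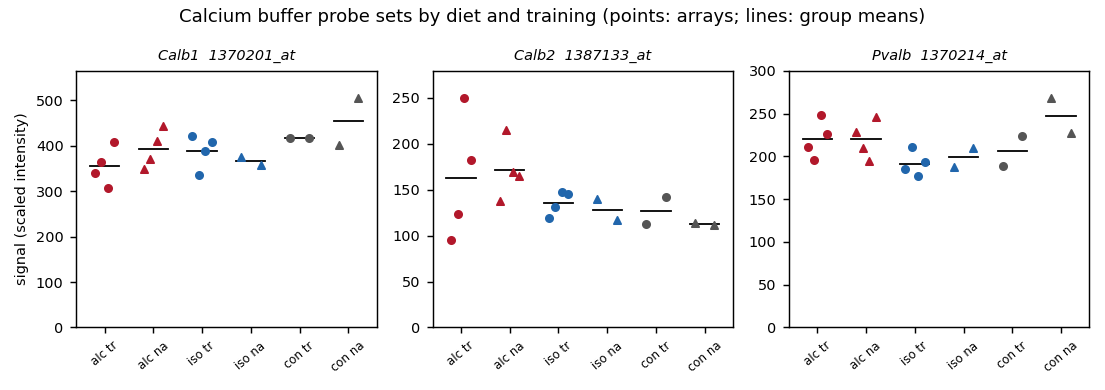
Signal (scaled intensity, linear axis from 0) of the 3 calcium buffer probe sets on each array, by diet (alc, alcohol; iso, isocaloric; con, control) and training (tr, trained; na, naive); points are arrays and lines are group means. Calb2 spreads most within a group, at 94.7 to 249.7 on alcohol trained arrays, and the diets overlap for all 3 genes.

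Markers of other interneurons were examined beside the buffers. Of 10 interneuron genes tested, Gad2, a GABA-synthesising enzyme, was higher in alcohol than in control (0.47, adjusted p = 0.0111) and in isocaloric than in control (0.50, adjusted p = 0.0271), and the other 9 did not pass. Of all probe sets tested, 11.3% rose in alcohol and 4.24% in isocaloric against control, shares that 1 of 10 does not stand out from. The median log2 difference of the 10 was -0.03 for alcohol minus control and 0.10 for isocaloric minus control. The 12 interneuron genes on the array had a summed signal of 3928 to 4598. A marker of the neighbouring thalamus, Prkcd, had the values most like those of Calb2 over the 18 arrays (r = 0.82). Of 4 thalamus genes tested 0 passed in any of the 3 diet comparisons, and the summed signal of the 8 on the array was 386.1 to 538.9. What share of the calretinin signal came from thalamic tissue was not tested.

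Training was compared within each diet and over all diets. By limma 0 of 13 members passed in the average of the 3 diets, where 0 had an unadjusted p under 0.05 (5.95% of all probe sets did) and the differences ran from -0.10 to 0.07. Of all probe sets 0.0105% passed. Within the alcohol diet 0 members passed and 0 had an unadjusted p under 0.05, with differences from -0.20 to 0.17. Within the isocaloric diet 0 passed and 1 was under 0.05 unadjusted, Ncs1 (1374103_at) at -0.24 (adjusted p = 0.69). In both diets 0.0% of all probe sets passed. An unadjusted p under 0.05 was found for 8.59% of all probe sets in the alcohol and 7.12% in the isocaloric diet, a share that 1 of 13 members does not stand out from.

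In the control diet 0 members passed, against 0.0315% of all probe sets, and 2 had an unadjusted p under 0.05, as did 10.9% of all probe sets. Both were Vsnl1 probe sets, at 0.365 ± 0.14 (SE; adjusted p = 0.322) and 0.30 ± 0.10 (SE; adjusted p = 0.26). The trained arrays read 758 and 912 against 768 and 541 in naive samples on 1368853_at, and 1549 and 1528 against 1346 and 1154 on 1368854_at. On the second probe set the trained arrays lay above the naive arrays, as they did for 18.8% of all probe sets, and on the first they overlapped. Trained arrays lay below naive arrays for Ncs1 (1374103_at) and Pvalb, and for 16.4% of all probe sets. Without control naive replicate 1 the differences were 0.62 (adjusted p = 0.00956) and 0.41 (adjusted p = 0.0268), a fit in which 1 naive array, the one lowest in Vsnl1, stood for its group and was taken to vary like the others.

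Whether training differences depended on diet was tested directly by the difference of differences. By limma 0 of 13 members passed for alcohol against isocaloric (1 under 0.05 unadjusted), for alcohol against control (3) and for isocaloric against control (2). The share of all probe sets called was 0.0%, 0.0315% and 0.179%, and the share under 0.05 unadjusted was 4.21%, 13.1% and 13.9%. The lowest adjusted p was that of Vsnl1 (1368853_at) for alcohol against control, at -0.56 (adjusted p = 0.179), and it passed without control naive replicate 1 (-0.815, adjusted p = 0.00589). Ncs1 (1374103_at) differed by 0.41 (adjusted p = 1) for alcohol against isocaloric. The Vsnl1 difference in training between isocaloric and control also passed without that control array, as did both contrasts of its second probe set.

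**Figure D4:**
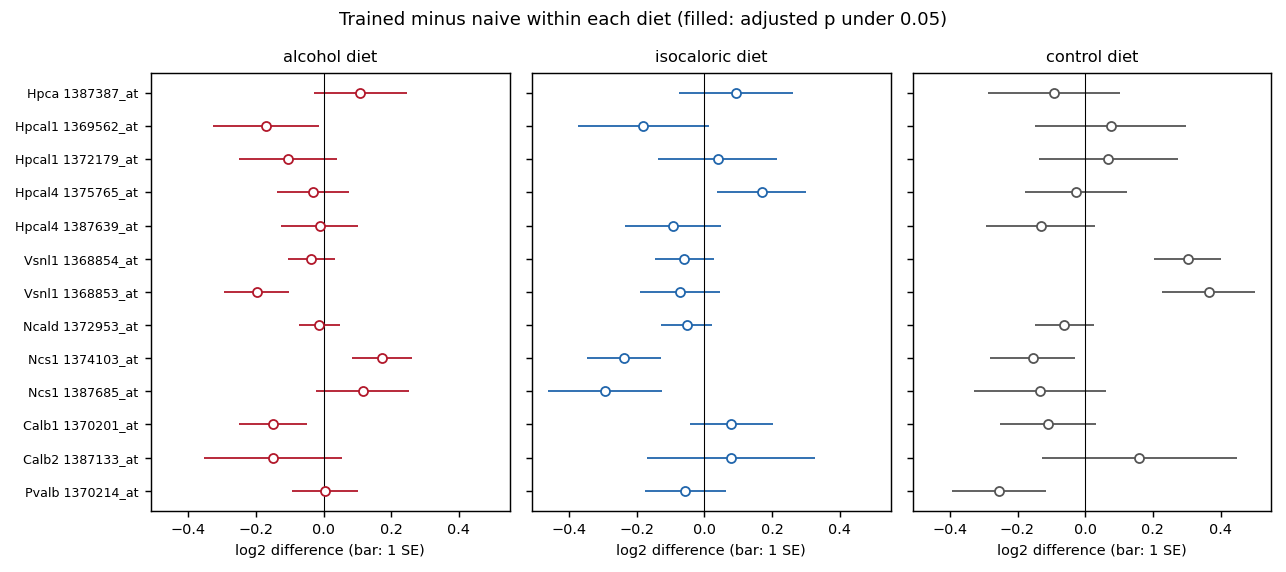
Log2 difference of trained minus naive samples for each member probe set within the alcohol, isocaloric and control diets (x axis, log2 scale; points, limma estimates; bars, 1 SE; filled points, adjusted p under 0.05). No point is filled, and the 2 Vsnl1 probe sets stand farthest to the right in the control diet, at 0.365 and 0.30.

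Among 26 other EF-hand sensors listed, 15 were tested with 1 probe set a gene. In the alcohol diet against control, 11.3% of all probe sets tested rose and 8.61% fell. Of the 15, 4 rose there and 0 fell, and the median was 0.06. They were the potassium channel interacting proteins Kcnip2 (0.39, adjusted p = 0.00439) and Kcnip3 (0.405, adjusted p = 0.0269), the calcium-binding protein Cabp1 (0.39, adjusted p = 0.0265) and Necab1 (0.45, adjusted p = 0.0263). Other probe sets of Kcnip2 and Kcnip3 were higher too, by 0.73 (adjusted p = 0.000492) and 0.93 (adjusted p = 0.000587). Necab1 also rose in the isocaloric diet (0.57, adjusted p = 0.0277), where Cib1, a calcium- and integrin-binding protein, and S100a1 fell (-0.47 and -0.28, adjusted p = 0.00624 and 0.0481). Of all probe sets tested, 4.24% rose and 2.8% fell in isocaloric against control, so the 1 rise of 15 is near the background share. Between alcohol and isocaloric, 1 of the 15 passed, Cib1 (0.35, adjusted p = 0.0192), against 1.47% of all probe sets rising and 1.59% falling. Its mean signal was 170.1, 141.8 and 185.4 in the alcohol, isocaloric and control diets.

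Of 10 calmodulin-binding regulators tested, 2 rose in alcohol against control and 0 fell. Nrgn, neurogranin, which holds calmodulin at synapses, was higher by 0.35 (adjusted p = 0.00767). Pde1b, a calmodulin-dependent phosphodiesterase, was higher by 1.01 against control (adjusted p = 0.00904) and by 1.04 against isocaloric (adjusted p = 0.0199), at a mean signal of 101.0 against 62.1 in the isocaloric and 53.0 in the control diet. Of 17 pumps, exchangers and store proteins, 2 rose and 3 fell in alcohol against control. Of all probe sets tested, 11.3% rose and 8.61% fell in this comparison, so the 2 of 17 that rose are near the background share. The plasma membrane pump Atp2b2 and the reticulum pump Atp2a2 were higher by 0.29 (adjusted p = 0.0158) and 0.23 (adjusted p = 0.0235). Another Atp2b2 probe set was higher by 1.07 (adjusted p = 9.67e-06), and 1 of 2 others of Atp2a2 did not pass (0.10, adjusted p = 0.527). The release channel Itpr1 and the exchanger Slc8a1 were lower (-0.21 and -0.25, adjusted p = 0.034 and 0.0419). Canx, calnexin, named after its values were seen, was also lower on the probe set used (-0.17, adjusted p = 0.0452), but another of its probe sets was higher (0.56, adjusted p = 0.000958). In the other 2 diet comparisons 0 of these 17 passed, and 0 genes of the 3 lists passed for training.

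The genes most like each member over the 18 arrays were taken by Pearson's r of log2 signal, as a description, since the arrays share diet groups and scaling. For Hpca they were Ap2m1 (0.92), a clathrin adaptor subunit, Thra (0.91), a thyroid hormone receptor, and Ckb (0.89), brain creatine kinase. After each group's mean was removed, r was 0.79, 0.77 and 0.63. For Hpcal4 (1375765_at) they were Cdk16 (0.90), Gnb2 (0.88) and Pcdh8 (0.88), for Hpcal1 (1372179_at) Tpd52l1 (0.81), Gpsm1 (0.81) and Akirin2 (0.78), and for Vsnl1 (1368854_at) Hcn3 (0.83), Clk1 (0.82) and Slc7a1 (0.82). For Vsnl1 the rank correlations were lower, at Spearman's rho of 0.70, 0.42 and 0.45, and r after removal of the group means was 0.65, 0.515 and 0.51. Calb1 was most like Dctpp1 (0.82), Ncald like Mrpl34 (0.76), Ncs1 (1374103_at) like Pcm1 (0.71) and Pvalb like Nufip1 (0.70). No other member was among the 3 genes most like any of the 9.

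Several measures moved with the control diet beside these results. Of 6 endothelial and mural genes tested, 5 rose in alcohol and 6 in isocaloric against control, and the summed signal of the 10 on the array was 989.8 to 1202 on alcohol, 1019 to 1112 on isocaloric and 632.1 to 684.0 on control arrays. Of all probe sets tested, 11.3% rose in alcohol and 4.24% in isocaloric against control. Of 11 neuron markers 1 was called in alcohol against control, Syp (0.18, adjusted p = 0.0473), which is near that background share. The median of the 11 was 0.02. Of 4 dentate granule cell genes tested, 2 rose in alcohol against control, Pdyn (0.62, adjusted p = 0.00428) and Pde1b (1.01, adjusted p = 0.00904). Pde1b is in both lists, and this is the same result as that given among the calmodulin-binding regulators. The other 2 did not pass, and the median was 0.23. Pdyn also rose in isocaloric against control (0.54, adjusted p = 0.031). The summed signal of the 6 dentate genes on the array overlapped between diets. It was 726.3 to 937.0 on alcohol, 731.0 to 849.4 on isocaloric and 756.5 to 924.4 on control arrays. The log2 ratio of 3′ to 5′ actin probe sets, a sign of RNA quality that rises with degradation, was 0.187 to 0.668 on alcohol, 0.318 to 0.505 on isocaloric and 0.538 to 0.729 on control arrays. The hexokinase ratio was 0.696 to 1.29, 0.903 to 1.22 and 1.18 to 1.6. Of 7 CA1 and 4 CA3 pyramidal genes tested, 0 passed in any of the 3 diet comparisons. Their medians were 0.06 and 0.07 for alcohol minus control. The part of the vascular, dentate and pyramidal markers in the sensor differences was not tested. With the actin ratio in the fit, 2 of 13 members passed for alcohol against control, the 2 Hpcal4 probe sets, and Hpca stood at 0.59 (adjusted p = 0.0613). Of the other calls lost, Ncs1 (1387685_at) was at 0.58 (adjusted p = 0.0613) and Hpcal1 (1369562_at) at 0.62 (adjusted p = 0.0758), about as large as reported, while Vsnl1 (1368853_at) was at 0.27 (adjusted p = 0.176) and Hpcal1 (1372179_at) at 0.255 (adjusted p = 0.418). With the hexokinase ratio 4 passed, and Hpca and both Hpcal4 probe sets were among them. For alcohol against isocaloric, the Gapdh ratio was 0.0939 to 0.477 and 0.0636 to 0.181, and with it in the fit Hpca was 0.44 higher (adjusted p = 0.146).

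**Figure D5:**
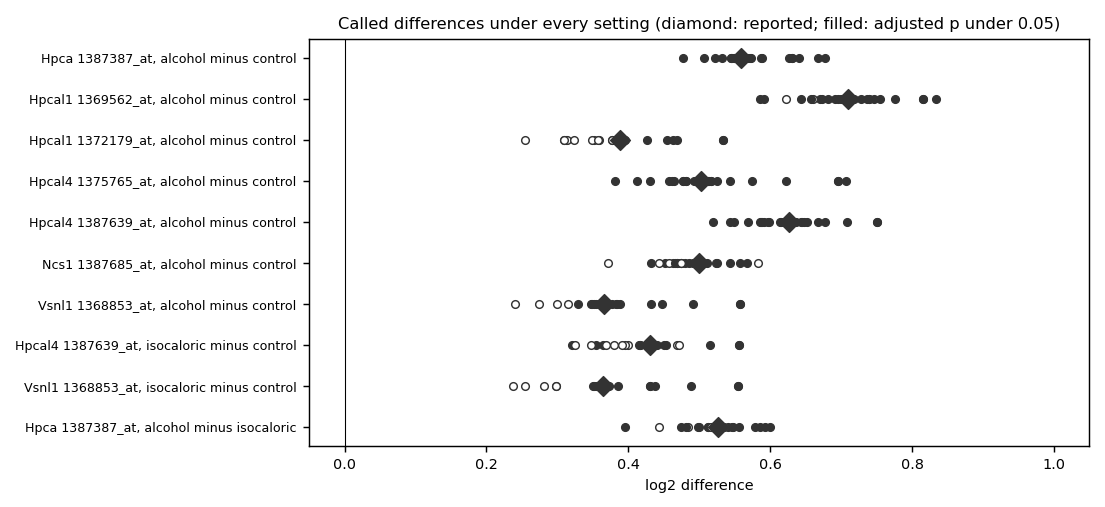
Log2 difference (x axis) of each of the 10 differences called, in the fit reported (diamonds) and under each of 33 alternative settings (circles); filled symbols have an adjusted p under 0.05. All points lie above 0, and both Hpcal4 probe sets stay filled throughout for alcohol minus control, whereas Hpcal1 (1372179_at) is open in 14 of 33 settings.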

How the data were processed

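The authors deposited a linear intensity for each probe set and array, scaled to a common trimmed mean. Per the submitters' processing notes MAS5 was used for 2 arrays, control naive replicate 1 and control trained replicate 2; for the other 16 none is named. Such scaling can hide a change in total RNA.

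Groups came from each sample's description. A constant of 6.06 (the 10th percentile of the table) was added before log2, which understates differences at low signal. Probe sets with a mean under the 40th percentile and 57 Affymetrix controls were left out, and 9520 were tested. limma 3.58.1 (R 4.3.3) was fitted to 6 group means over 18 arrays, with 12 residual degrees of freedom and eBayes with a trend, two-sided. Diet comparisons average trained and naive differences. P-values were adjusted within a comparison by Benjamini-Hochberg. The code was tested on simulated data.

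Of the probe sets, 12789 had 1 symbol in the platform annotation, 312 several and 2822 none. Member probe sets, 13 of 13, matched the RefSeq gene table by gene ID. The rule named every member probe set, and of the context lists the tested genes past the threshold, up to 4 a comparison. Members and lists were chosen with earlier results of these data known. Alternatives changed the constant, filter, scaling, samples, weights, replicate block and RNA quality ratios. The hexokinase ratio and a term for the MAS5 arrays were added after seeing the data. Tables and figures used Python 3.11.15, pandas 2.3.3, numpy 2.4.6, scipy 1.17.1 and matplotlib 3.10.9.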

Additional observations from a re-analysis of the deposited data

Results flagged for a closer look

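In groups of 4 arrays, 2 of 39 checks of a member probe set found an array far from the other 3 by Dixon's criterion; chance gives about 1 in 20. Hpcal4 (1375765_at) read 374 on alcohol trained replicate 4, against 295 to 302 on the other alcohol trained arrays. Ncs1 (1387685_at) read 267 on isocaloric trained replicate 4, against 181 to 183 on the other isocaloric trained arrays. Without alcohol trained replicate 4 the Hpcal4 difference from control kept its call, and without isocaloric trained replicate 4 the Ncs1 difference between alcohol and isocaloric passed.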

How the results depend on the processing

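No called difference of a member changed sign under the 33 alternatives. Beside the larger changes given next, 5 members passed for alcohol minus control with array weights. With no filter, and with only the groups compared, 6 passed. For isocaloric minus control 3 passed with quantile normalization. The members called for alcohol minus control, 7 as reported, were 2 with the actin ratio, 4 with the hexokinase ratio, 4 without the 4 arrays high in Ttr and 4 to 9 with 1 array left out (4 without control naive replicate 2, 9 without control naive replicate 1). For isocaloric minus control, 2 as reported, there were 4 with median centring, 0 with only the groups compared, 1 when replicate numbers entered as a replicate block, 0 with the Gapdh ratio, 0 with the actin ratio, 1 with the hexokinase ratio, 4 without the 2 MAS5 arrays, 0 without the arrays high in Ttr and 0 to 6 with 1 array left out. For alcohol minus isocaloric, 1 as reported, there were 2 with the 60th percentile filter, 4 with median centring, 2 with only the groups compared, 3 with array weights, 0 with the Gapdh ratio, 2 with the hexokinase ratio, 2 with a MAS5 term, 2 without the MAS5 arrays, 0 without the arrays high in Ttr and 0 to 2 with 1 array left out. It was 0 in trained and in naive samples as reported, 1 in trained samples with median centring, 2 in naive samples with array weights, and 0 to 1 in trained and 0 in naive samples with 1 array left out. For training it stayed 0 over all diets and within the alcohol and isocaloric diets, and was 0 to 2 in the control diet with 1 array left out. The difference in training between alcohol and control gave 1 member without the MAS5 arrays and 0 to 2 with 1 array left out, that between isocaloric and control 0 to 2, and that between alcohol and isocaloric 0. The cause of these changes was not tested.

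With median centring the overall median for isocaloric minus control went from 0.025 to -0.085. The share of calls that were higher went from 60.2% to 19.1% there, from 56.7% to 46.4% for alcohol minus control and from 48.1% to 88.6% for alcohol minus isocaloric. Under it Ncs1 (1374103_at), Calb1 and Pvalb passed as lower in isocaloric than in control (-0.33, -0.31 and -0.31), Calb1 also passed as lower in alcohol than in control (-0.255), and Hpcal1 (1369562_at), Hpcal4 (1375765_at) and Ncs1 (1387685_at) joined Hpca as higher in alcohol than in isocaloric. Same-numbered arrays of different groups deviated together at r over 0.1 in 4 of 36 pairs, so the numbers were not taken to pair arrays (deviations in groups of 2 mirror each other, so these pairs are not independent); with the replicate block 6, 1 and 1 members passed in the 3 diet comparisons. The 2 MAS5 arrays were 1 of each control group. With a term for them, 7 members passed for alcohol minus control and 3 for isocaloric minus control; leaving them out leaves 1 array in each control group, taken to vary like the others. Control groups of 2 arrays limit every comparison with control.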
